A study of Mus musculus with 9 samples.

Results

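The genes described here are 10 members of the vascular endothelial growth factor (VEGF) and angiopoietin families in cultured AdvSca1-SM cells, which are Sca1-expressing progenitors derived from smooth muscle that reside in the arterial adventitia. They were chosen by name: the ligands Vegfa, Vegfb, Vegfc and Vegfd, the receptors Flt1 and Kdr, the angiopoietins Angpt1 and Angpt2, and the angiopoietin-like genes Angptl2 and Angptl4. Each symbol matched 1 Ensembl gene among the 55416 genes of the count table, and all 10 were among the 14879 genes that passed the filter on low counts and were tested.

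SM22α-Cre-YFP mice, in which a smooth muscle promoter drives Cre, were pooled at 8 weeks of age and their aortas and carotid arteries supplied the sorted cells, so the cultures represent a pool of animals whose number is not given in the sources used here. RNA-Seq was performed on 9 libraries in 3 groups of 3 cultures after 72 h, all with 0.1% DMSO: Stem (vehicle), TGF-β (5 ng/mL TGF-β1) and Both (5 ng/mL TGF-β1 plus 50 μM PFI-3, a ligand of the Brg1 bromodomain). The methods assign stem cell media to Stem, which for maintenance held 10% FBS with basic FGF and EGF, and give DMEM with 0.1% FBS after 24 h of growth arrest for the stimulated cells. Medium and TGF-β1 therefore cannot be told apart between Stem and the other groups, whereas TGF-β and Both differed in PFI-3.

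VEGF ligands are secreted dimers that bind receptor tyrosine kinases, mainly on endothelial cells. VEGF-A drives blood vessel growth through the receptor encoded by Kdr, the Flt1 product binds VEGF-A tightly and can act as a decoy, and VEGF-C and VEGF-D act on lymphatic endothelium through the receptor encoded by Flt4. Angiopoietin-1 activates the Tie2 receptor (the Tek product) and stabilizes vessels, angiopoietin-2 can oppose it, and the angiopoietin-like proteins share their fold but do not bind Tie2. Cells around vessels are a known source of these ligands, and none of the RNA levels given here measures secreted protein.

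Total counts were between 35686291 and 37262375 in Stem, between 39453841 and 43194424 in TGF-β and between 42683050 and 47741128 in Both, and values are normalized counts, which are counts scaled to a common library of 41184338. Changes were tested by edgeR (quasi-likelihood), and p-values were adjusted by the Benjamini-Hochberg method over all 14879 genes. Genes are said to have risen or fallen at an adjusted p below 0.05, and to have passed the fold threshold if the log2 fold change was also below -1 or above 1. Stem replicate 2 stood apart from the other Stem libraries: a gene listed without a symbol took 4.70% of its counts, against 0.365% and 0.477% in replicates 1 and 3, and its Spearman correlation with replicate 1 across genes was 0.9947 and with replicate 3 0.9969, against 0.9975 between replicates 1 and 3. The 4 progenitor markers Ly6a, Cd34, Pdgfra and Scara5 were detected in all groups. Their summed levels were from 50475 to 58767 in Stem, from 6361 to 6638 in TGF-β and from 6784 to 7423 in Both. Most of each sum was Pdgfra (means 45657, 5438 and 6268). All 4 fell past the fold threshold between Stem and TGF-β. Between TGF-β and Both, Scara5 fell past it (log2 fold change -1.18, adjusted p = 0.0383 by edgeR), Pdgfra rose (0.20, adjusted p = 0.0485) and 2 were not called. The 5 myofibroblast markers (Acta2, Postn, Col1a1, Col3a1 and Tagln) all rose past it between Stem and TGF-β. All 5 fell between TGF-β and Both, 2 past it, Postn (-1.74) and Col3a1 (-1.01). One label names hepatic tissue for the RNA extraction, but all 6 hepatocyte markers were at 3 counts or fewer in every library.

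Between Stem and TGF-β, every one of the 10 members changed, 4 upward and 6 downward. Vegfa, Flt1 and Kdr rose past the fold threshold, where 10.6% of all tested genes did so, and Vegfd, Angpt2 and Angptl4 fell past it, where 14.5% of all tested genes did so. Of these, Kdr passed the filter on low counts only through the TGF-β and Both libraries. At an adjusted p below 0.05 with no fold minimum, 4 members rose and 6 fell, against 37.3% and 37.7% of all tested genes. The median log2 fold change of the members was -0.62, and that of all tested genes was -0.0027. In each member the values of the Stem and TGF-β libraries did not overlap, as the plot of members by library shows, which was also so for 76.8% of all tested genes. Without Stem replicate 2, 7 members passed the fold threshold in place of 6, the addition being Angpt1.

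**Figure D1:**
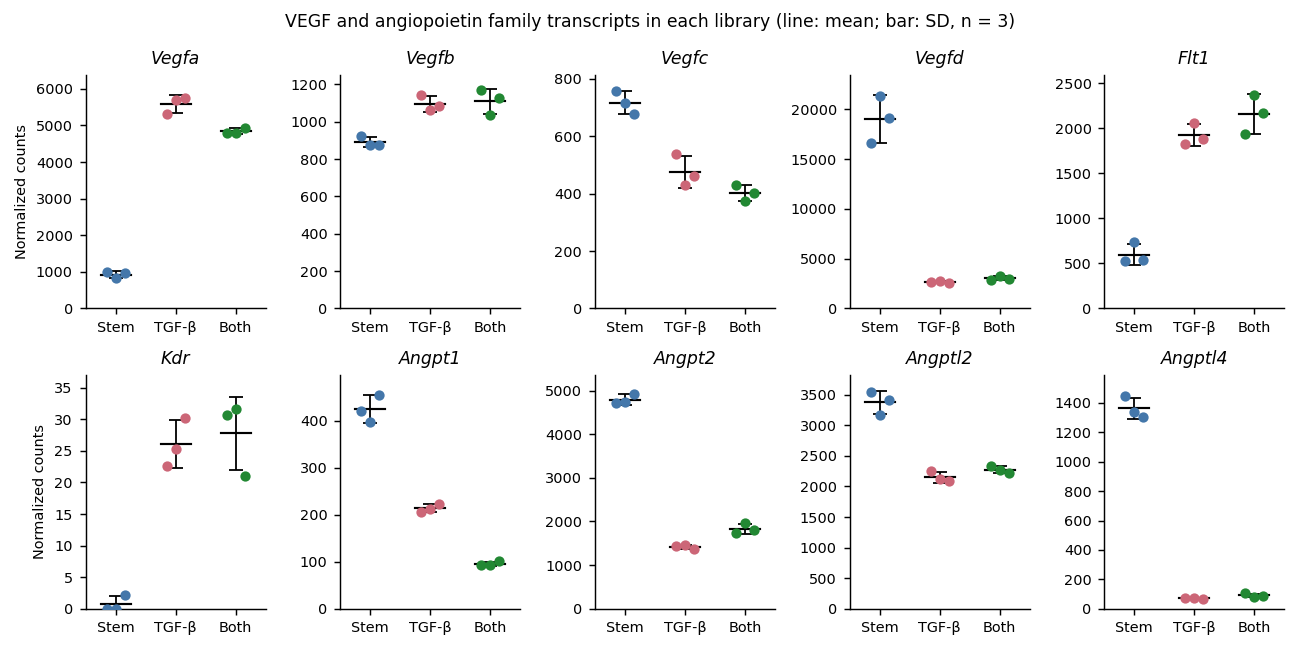
Normalized counts (y axis, from 0, a separate scale for each gene) of the 10 members in the 3 Stem, 3 TGF-β and 3 Both libraries, with points for libraries, lines for group means and bars for the SD (n = 3). Vegfa, Flt1 and Kdr were higher and Vegfd, Angpt2 and Angptl4 lower in TGF-β than in Stem, and Angpt1 was lowest in Both (93.6 to 100.9).

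RefSeq promoter entries (GRCm38.p6) were found for 7 of the 10 members. The 250 bases before the annotated start are shown for the 2 receptors and for the 2 ligands with the largest changes between Stem and TGF-β. Of these, Vegfa, Flt1 and Kdr were higher and Vegfd lower in TGF-β. Windows of Vegfb, Vegfc and Angptl2 are not shown, and these genes also differed in direction (log2 fold changes 0.30, -0.59 and -0.65). The windows are chr17:46032378-46032627 (minus strand) for Vegfa, chrX:164373272-164373521 (plus strand) for Vegfd, chr5:147726012-147726261 (minus strand) for Flt1 and chr5:75978456-75978705 (minus strand) for Kdr. Capitals mark matches, on either strand, to ACGTG and GCGTG (the hypoxia response core), GTCTG (an SMAD element), TGANTCA (AP-1), GGAATG (TEAD), GGGCGG (the GC box) or TATAAA.
Vegfa: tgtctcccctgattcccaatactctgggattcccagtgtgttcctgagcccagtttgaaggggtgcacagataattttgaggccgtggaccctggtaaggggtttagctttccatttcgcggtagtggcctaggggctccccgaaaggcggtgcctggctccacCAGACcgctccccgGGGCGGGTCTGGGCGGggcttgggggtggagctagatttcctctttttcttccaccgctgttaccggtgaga
Vegfd: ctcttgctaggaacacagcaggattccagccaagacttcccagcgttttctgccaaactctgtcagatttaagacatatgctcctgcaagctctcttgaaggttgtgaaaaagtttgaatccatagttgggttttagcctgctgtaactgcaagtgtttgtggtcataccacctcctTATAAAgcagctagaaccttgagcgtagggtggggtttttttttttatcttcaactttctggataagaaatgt
Flt1: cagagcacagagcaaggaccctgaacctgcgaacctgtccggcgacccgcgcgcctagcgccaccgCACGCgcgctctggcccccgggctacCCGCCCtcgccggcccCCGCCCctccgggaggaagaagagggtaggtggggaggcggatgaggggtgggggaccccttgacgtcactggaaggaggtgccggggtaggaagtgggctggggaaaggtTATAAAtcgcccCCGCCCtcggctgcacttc
Kdr: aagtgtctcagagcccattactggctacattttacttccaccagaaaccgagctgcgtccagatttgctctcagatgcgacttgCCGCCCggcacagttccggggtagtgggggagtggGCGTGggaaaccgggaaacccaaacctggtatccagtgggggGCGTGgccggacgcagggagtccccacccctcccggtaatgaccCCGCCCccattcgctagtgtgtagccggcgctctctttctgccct

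The Vegfa window held 2 matches to GTCTG, at 86 and 66 bases before the start, and 2 to GGGCGG, at 72 and 62 bases, and the matches at 72, 66 and 62 bases share bases or adjoin. This window lies before the more upstream of the 2 Vegfa starts in RefSeq. The other window, chr17:46025164-46025413, held ACGTG at 211, GCGTG at 218, GTCTG at 102 and GGGCGG at 158 bases before its start. It lies downstream of the first start, inside the gene, where a window can hold exon sequence. Whether its matches fall in exons was not examined, and which start these cells used was not measured. The Flt1 window held 3 matches to GGGCGG, 1 to GCGTG and 1 to TATAAA, the last at 31 bases before the start. The Kdr window held 2 matches each to GCGTG and GGGCGG, and the Vegfd window held only 1 match, to TATAAA at 73 bases. Of 32851 promoter windows of this length, 42.2% held GTCTG, 32.7% GGGCGG, 28.2% GCGTG, 16.6% ACGTG, 12.6% GGAATG, 12.4% TATAAA and 6.75% TGANTCA. The GC content was 70.4% for Flt1, 61.6% for Kdr, 59.2% for Vegfa and 42.4% for Vegfd, against a median of 52.4% over all windows, and the windows held 23, 16, 11 and 2 CpG dinucleotides. These matches are letters in a window and no measure of factor binding.

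Among the ligands, Vegfa rose and Vegfd fell, each by more than the other ligands of the list. Vegfa (ENSMUSG00000023951) had 988.3, 824.7 and 966.1 normalized counts in the Stem libraries, 5310, 5703 and 5759 in TGF-β and 4798, 4786 and 4931 in Both. Every TGF-β and Both library was above every Stem library, and all 3 Both libraries were below all 3 TGF-β libraries. Vegfa was 6.03-fold higher in TGF-β than in Stem (log2 fold change 2.59, SE 0.0623, adjusted p = 4.66e-12 by edgeR). Vegfd (ENSMUSG00000031380), a ligand whose main receptor in mice is the Flt4 product, had 16574, 21379 and 19149 normalized counts in the Stem libraries, 2685, 2795 and 2543 in TGF-β and 2879, 3284 and 2930 in Both. It was 7.12-fold lower in TGF-β than in Stem (log2 fold change -2.83, SE 0.0869, adjusted p = 3.33e-11 by edgeR), and Stem replicate 2 held its highest value. Without that replicate the log2 fold changes were 2.52 for Vegfa and -2.73 for Vegfd.

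The other ligands moved less. Vegfb (ENSMUSG00000024962), which binds the Flt1 product and is linked to fatty acid handling, had 923.4, 876.9 and 873.0 normalized counts in the Stem libraries, 1141, 1062 and 1082 in TGF-β and 1168, 1033 and 1124 in Both. It rose between Stem and TGF-β by a log2 fold change of 0.30 (SE 0.0565, adjusted p = 4.51e-04 by edgeR), with all TGF-β libraries above all Stem libraries. Vegfc (ENSMUSG00000031520), the main lymphatic growth factor, had 756.9, 716.1 and 676.2 normalized counts in the Stem libraries, 538.5, 430.0 and 461.8 in TGF-β and 430.4, 375.1 and 403.7 in Both. It fell by 0.59 on the log2 scale between Stem and TGF-β (SE 0.0858, adjusted p = 5.09e-05 by edgeR), so neither of these ligands passed the fold threshold.

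Normalized counts per kilobase of exon allow levels to be compared between genes. On this scale Vegfd was the most abundant member in Stem, at 7904 ± 998.4 per kilobase (SD, n = 3), followed by Angpt2 at 1299 ± 31.4, and Vegfa was seventh at 216.2 ± 20.7. In TGF-β the order began with Vegfa at 1305 ± 57.1 and Vegfd at 1111 ± 52.4, whose libraries did not overlap, and in Both it began with Vegfd at 1259 ± 91.6 and Vegfa at 1129 ± 18.8. Kdr was last in all groups, at 0.0799, 2.89 and 3.07 per kilobase. In the Stem order only Vegfb (555.2 ± 17.5) and Angptl2 (537.3 ± 30.3) overlapped as neighbours, and in the Both order only Vegfc (164.6) and Flt1 (159.9) did. Exon lengths came from an annotation of another build, and with the lengths of its basic transcript set, tried after the data were seen, Angptl2 moved above Vegfb in Stem (1012 against 695.6 per kilobase) and above Angpt2 in TGF-β (644.3 against 398.5) and Both (681.9 against 514.5), and Flt1 moved above Vegfc in Both (197.0 against 164.6).

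The make-up of the VEGF ligand RNA was read from the same scale. Within each library the levels per kilobase of Vegfa, Vegfb, Vegfc, Vegfd and Pgf (placental growth factor, a ligand of the Flt1 product) were summed and each gene was expressed as a share of the sum, as a description with no test. Vegfd made up 88.0% ± 1.79 of the sum for Stem, 32.9% ± 1.27 for TGF-β and 38.2% ± 2.34 for Both (SD, n = 3). Vegfa made up 2.44% ± 0.474, 38.7% ± 1.73 and 34.2% ± 0.778. Vegfb went from 6.25% in Stem to 20.2% in TGF-β, although its own level rose by less than the fold threshold. The sum itself came to 8973 ± 956.7 per kilobase for Stem, 3375 ± 30.1 for TGF-β and 3298 ± 37.2 for Both, so the Stem sum was mostly Vegfd.

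**Figure D2:**
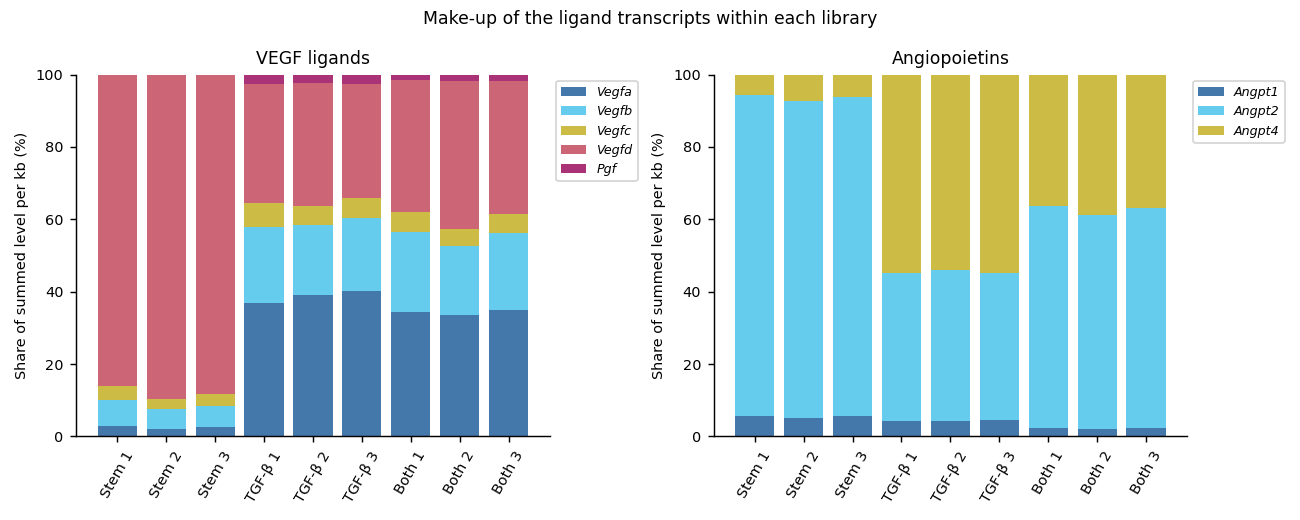
Share of the summed level per kilobase (y axis, percent) taken by each VEGF ligand (left) and each angiopoietin (right) in each of the 9 libraries, with 1 stacked bar per library. Vegfd filled between 86.0% and 89.6% of the VEGF ligand bar in Stem and between 31.6% and 34.1% in TGF-β, and Angpt4 filled between 5.60% and 7.42% of the angiopoietin bar in Stem and between 53.9% and 54.9% in TGF-β.

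Both receptors were higher in TGF-β than in Stem, from very different levels. Flt1 (ENSMUSG00000029648) had 527.6, 732.4 and 535.5 normalized counts in the Stem libraries, 1824, 2058 and 1885 in TGF-β and 1936, 2372 and 2170 in Both. It was 3.21-fold higher in TGF-β than in Stem (log2 fold change 1.68, SE 0.114, adjusted p = 4.65e-08 by edgeR). Stem replicate 2 was the highest of the Stem libraries, and without it the log2 fold change was 1.86. Kdr (ENSMUSG00000062960) had 0, 0 and 2 counts in Stem, 21, 25 and 31 counts in TGF-β and 34, 32 and 24 counts in Both. Every TGF-β and Both library was above the floor of 3 counts and no Stem library was. The summed Kdr counts, 2 in Stem and 77 in TGF-β, gave a ratio scaled for library size of 36.7 with a 95% exact interval of 9.82 to 308.5, which covers counting error only. The fitted log2 fold change of 4.97 (SE 0.588, adjusted p = 8.34e-06 by edgeR) ranged from 3.38 to 7.73 over the alternatives, with Stem near 0 counts. Kdr passed the filter on low counts only through the TGF-β and Both libraries, where it was higher, so its test rests on them. With no such filter its log2 fold change was 4.98.

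Endothelial markers were read beside the receptors, since Flt1 and Kdr are best known from endothelial cells. Of 12 endothelial markers, Tie1, Cldn5, Robo4 and Sox17 were at 3 counts or fewer in every library, and Pecam1 had between 3 and 13 counts. Cdh5, too low to be tested by edgeR, had 3, 0 and 0 counts in Stem, 6, 9 and 8 in TGF-β and 4, 8 and 7 in Both, and both stimulated groups lay above Stem without overlap. Plvap, also too low to be tested, went the other way, with 7, 8 and 11 counts in Stem, 5, 5 and 4 in TGF-β and 0, 3 and 5 in Both. The summed level of all 12 was between 166.2 and 413.5 in Stem, between 1343 and 1523 in TGF-β and between 1045 and 1224 in Both. One gene, Erg, held most of that rise, going from a mean of 100.4 in Stem to 1346 in TGF-β. Emcn, an endothelial surface protein gene, fell from 104.5 to 8.27 (log2 fold change -3.61, adjusted p = 1.43e-04 by edgeR). Erg and Emcn were the markers past the fold threshold among the 4 tested, while DESeq2, without this filter, had 2 higher and 1 lower past it. Emcn had 2, 5 and 18 counts in TGF-β and 5, 1 and 1 in Both, so it passed the filter on low counts mainly through the Stem libraries. Without Erg, a choice made after the data were seen, the sums were between 109.7 and 259.6 in Stem, between 86.2 and 103.5 in TGF-β and between 72.1 and 91.3 in Both.

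Other cell type markers also moved, and those named here were picked after their values were seen. The 8 pericyte and mural markers had summed levels from 37034 to 38427 in Stem, from 91757 to 97273 in TGF-β and from 85507 to 91879 in Both. Most of that sum was Pdgfrb (means 34701 and 70559 in Stem and TGF-β), and the list went both ways, with 4 genes higher and 2 lower past the fold threshold. The higher were Rgs5 (log2 fold change 5.68), Cspg4 (4.15), Mcam (1.28) and Pdgfrb (1.02), and the lower were Kcnj8 (-3.54) and Abcc9 (-3.29). Kcnj8, with 2, 7 and 5 counts in TGF-β, passed the filter on low counts only through the Stem libraries. Between TGF-β and Both, 1 of the 8 was higher, Abcc9 (0.79, adjusted p = 0.0218 by edgeR), 2 were lower, Rgs5 (-1.60, adjusted p = 2.77e-05) and Mcam (-0.76, adjusted p = 0.00624), and 5 were not called. Of 6 leukocyte markers, 4 were at 3 counts or fewer in every library, and the sums, mostly Lyz2, were between 107.1 and 163.8. Cd68 rose from 3.53 in Stem to 13.2 in TGF-β (log2 fold change 1.86, adjusted p = 0.00475 by edgeR) and was 14.3 in Both. Its counts were 7, 1 and 2 in Stem, 10, 15 and 14 in TGF-β and 17, 11 and 19 in Both. Cd68 passed the filter on low counts only through the TGF-β and Both libraries, where it was higher. The lymphatic marker sums, nearly all Pdpn, were between 7591 and 9061. Of the 4 lymphatic markers, Lyve1 (means 8.94 and 25.3, log2 fold change 1.49, adjusted p = 3.07e-04 by edgeR) and Flt4 (1.12) rose past the fold threshold between Stem and TGF-β. Lyve1 was lower in Both than in TGF-β (-1.07, adjusted p = 0.0189 by edgeR), a call that DESeq2 did not make. With 8, 10 and 7 counts in Stem, Lyve1 passed the filter on low counts mainly through the TGF-β and Both libraries. The part of other cell types in the levels of the members was not tested, and in RNA from whole cultures fewer cells of a type and less RNA per cell cannot be told apart.

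The 4 other genes of the VEGF family and its receptors were all detected. Pgf had 9, 12 and 16 counts in Stem, 229, 224 and 251 in TGF-β and 157, 182 and 182 in Both, and its mean went from 13.3 to 239.8 normalized counts (log2 fold change 4.17, SE 0.178, adjusted p = 6.49e-10 by edgeR). Flt4, the lymphatic receptor, rose from 29.7 to 64.6 normalized counts (log2 fold change 1.12, adjusted p = 2.54e-04 by edgeR). These 2 of 4 passed the fold threshold, both higher, and the list's median log2 fold change was 0.75. The coreceptors, named after their values were seen, did not pass it: Nrp1 had a log2 fold change of -0.96 and Nrp2 of 0.38. Flt1 held 92.1%, 93.0% and 92.3% of the summed level per kilobase of Flt1, Kdr and Flt4 for Stem, TGF-β and Both, while that sum went from 48.0 to 153.1 and 173.1.

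Both angiopoietins fell between Stem and TGF-β, Angpt2 by more. Angpt2 (ENSMUSG00000031465) had 4718, 4734 and 4927 normalized counts in the Stem libraries, 1431, 1450 and 1375 in TGF-β and 1735, 1955 and 1805 in Both. It was 3.38-fold lower in TGF-β than in Stem (log2 fold change -1.76, SE 0.0484, adjusted p = 1.39e-11 by edgeR), and the 3 groups did not overlap. Angpt1 (ENSMUSG00000022309) had 419.8, 397.7 and 455.5 normalized counts in the Stem libraries, 205.0, 213.0 and 222.6 in TGF-β and 93.6, 93.8 and 100.9 in Both. The groups formed 3 separate steps, with Both lowest. Between Stem and TGF-β it fell by 0.99 on the log2 scale (SE 0.0816, adjusted p = 2.98e-07 by edgeR), just inside the fold threshold, which it passed under 4 of 17 alternatives: total counts (-1.11), a mean of at least 10 counts (-1.003), and without Stem replicate 2 (-1.03) or TGF-β replicate 3 (-1.01). An antisense gene, Gm17473, overlaps 14.2% of the Angpt1 exons and had 3 counts in all libraries together.

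The genes around the angiopoietins changed in both directions. Of the 5 other genes of the angiopoietin and Tie axis, Tie1 was too low to be tested, and 2 rose and 2 fell past the fold threshold, with a median log2 fold change of 0.56. Angpt4, the remaining angiopoietin, rose from 221.5 ± 32.9 to 1190 ± 20.7 normalized counts (SD, n = 3), with a fitted log2 change of 2.43 (adjusted p = 6.01e-10 by edgeR). Ptprb, a phosphatase that acts on Tie2, rose from 319.5 ± 118.0 to 6375 ± 558.0 (log2 fold change 4.31, adjusted p = 8.72e-10 by edgeR). Tek itself fell from 45.8 to 18.3 (log2 fold change -1.31, adjusted p = 3.39e-04 by edgeR), and Svep1, a large matrix protein reported to bind Tie1, fell from 71005 to 13462 (log2 fold change -2.40, adjusted p = 1.72e-11 by edgeR). As a share of the summed level per kilobase of the 3 angiopoietins, Angpt2 took 88.1% ± 0.710 for Stem, 41.1% ± 0.589 for TGF-β and 60.4% ± 1.14 for Both. Angpt4 was 6.43% ± 0.918, 54.5% ± 0.528 and 37.4% ± 1.32 (SD, n = 3).

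The ratio of Angpt2 to Angpt1 counts within a library needs no scaling between libraries. Its log2 value was 3.49, 3.57 and 3.43 in Stem, 2.80, 2.76 and 2.62 in TGF-β and 4.20, 4.37 and 4.15 in Both. The 3 groups did not overlap and Both stood highest, 1.51 above TGF-β on the log2 scale, or 2.85-fold. An exact two-sided permutation test gave p = 0.1 for each of the 3 comparisons of this ratio (0.1125 adjusted over 9 ratio tests), which is the smallest that 3 libraries against 3 can give. The log2 ratio of Vegfa to Vegfc was 0.37 ± 0.16 for Stem, 3.55 ± 0.23 for TGF-β and 3.58 ± 0.10 for Both (SD, n = 3), 9.11-fold higher in TGF-β than in Stem (exact permutation p = 0.1). The log2 ratio of Vegfa to Flt1 was 0.64 ± 0.41, 1.54 ± 0.07 and 1.17 ± 0.15 (exact permutation p = 0.1 for each comparison), and its spread in Stem came from replicate 2, at 0.17 against 0.90 and 0.85. Without that replicate the difference between Stem and TGF-β was 0.66 in place of 0.90, and that between Stem and Both 0.29 in place of 0.53.

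**Figure D3:**
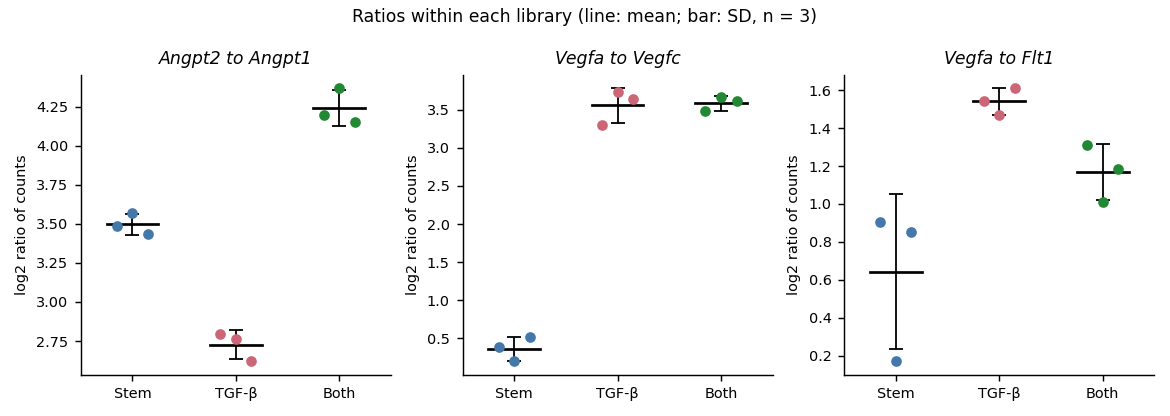
Log2 ratios of counts within each library (y axis, separate scales that do not start at 0) for Angpt2 to Angpt1, Vegfa to Vegfc and Vegfa to Flt1 in Stem, TGF-β and Both, with points for libraries, lines for means and bars for the SD (n = 3). The Angpt2 to Angpt1 ratio lay between 2.62 and 2.80 in TGF-β and between 4.15 and 4.37 in Both.

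The angiopoietin-like members both fell between Stem and TGF-β, and Angptl4 by more than any other member. Angptl4 (ENSMUSG00000002289), an inhibitor of lipoprotein lipase that is induced by fatty acids and by low oxygen, had 1447, 1335 and 1308 normalized counts in the Stem libraries, 73.4, 74.0 and 67.4 in TGF-β and 104.4, 82.9 and 89.5 in Both. It was 19.0-fold lower in TGF-β than in Stem (log2 fold change -4.25, SE 0.0891, adjusted p = 1.59e-12 by edgeR), the largest fall among the 10 members. Angptl2 (ENSMUSG00000004105), a secreted factor linked to inflammation and tissue remodeling, had 3544, 3170 and 3419 normalized counts in the Stem libraries, 2256, 2116 and 2082 in TGF-β and 2342, 2262 and 2227 in Both. It fell by 0.65 on the log2 scale (SE 0.0493, adjusted p = 1.34e-07 by edgeR), short of the fold threshold. Of the 4 other angiopoietin-like genes tested, Angptl6 (16.7 to 144.6 normalized counts, log2 fold change 3.10, adjusted p = 1.89e-08 by edgeR) and Angptl8 (5.33 to 13.7, log2 fold change 1.33, adjusted p = 0.0357) rose past the fold threshold. The list's median was 1.03, and DESeq2 had 1 gene of this list higher past the threshold in place of 2. Angptl8 had 7, 1 and 7 counts in Stem, 17, 9 and 14 in TGF-β and 14, 8 and 6 in Both. It passed the filter on low counts only through the TGF-β and Both libraries, so its test rests on them.

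Angptl4 and Vegfa are both known as targets of the oxygen-sensing pathway, and Angptl4 also of the PPAR nuclear receptors. Of 9 other hypoxia targets tested, 1 fell past the fold threshold and 0 rose past it, by edgeR and by DESeq2 alike, with 5 higher and 4 lower at an adjusted or unadjusted p below 0.05 and a median of 0.32. The gene past the threshold was Adm, which encodes the vasodilator peptide adrenomedullin, from 5923 to 173.9 normalized counts (log2 fold change -5.09, adjusted p = 1.49e-12 by edgeR). Of 8 oxygen-sensing genes, 1 fell past the threshold and 0 rose past it by edgeR and by DESeq2 alike, with 3 higher and 4 lower at an unadjusted p below 0.05 and a median of -0.02. That gene was Epas1, which encodes HIF-2α (log2 fold change -1.95, adjusted p = 5.68e-11 by edgeR). Of 10 tested genes of the PPAR and lipoprotein lipase list, 4 fell and 1 rose past the threshold, with a median of -0.64. The 3 with the largest changes were Lpl, lipoprotein lipase itself (1564 to 25.8 normalized counts, log2 fold change -5.91, adjusted p = 9.22e-10 by edgeR), Ppara (-2.41, adjusted p = 2.39e-07) and Fabp4 (-2.25, adjusted p = 3.20e-08).

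Among 6 genes that process VEGF-C and VEGF-D, 2 fell and 1 rose past the fold threshold between Stem and TGF-β, with a median of -0.33. Ccbe1 and Adamts3, which act together to cleave pro-VEGF-C, had log2 fold changes of -2.61 (adjusted p = 2.21e-07 by edgeR) and -1.85 (adjusted p = 2.38e-05), and Pcsk5, a proprotein convertase, had 1.51 (adjusted p = 3.00e-08). Of 8 secreted angiogenesis inhibitors, 2 rose and 1 fell past the threshold, with a median of 0.34. They were Vash1 (7.16 to 27.3 normalized counts, log2 fold change 1.91, adjusted p = 4.52e-05 by edgeR), Thbs1, which encodes thrombospondin-1 (1.40, adjusted p = 5.29e-08), and the protease gene Adamts1 (-2.47, adjusted p = 1.00e-09). Vash1, with 6, 8 and 6 counts in Stem, passed the filter on low counts only through the TGF-β and Both libraries.

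**Figure D4:**
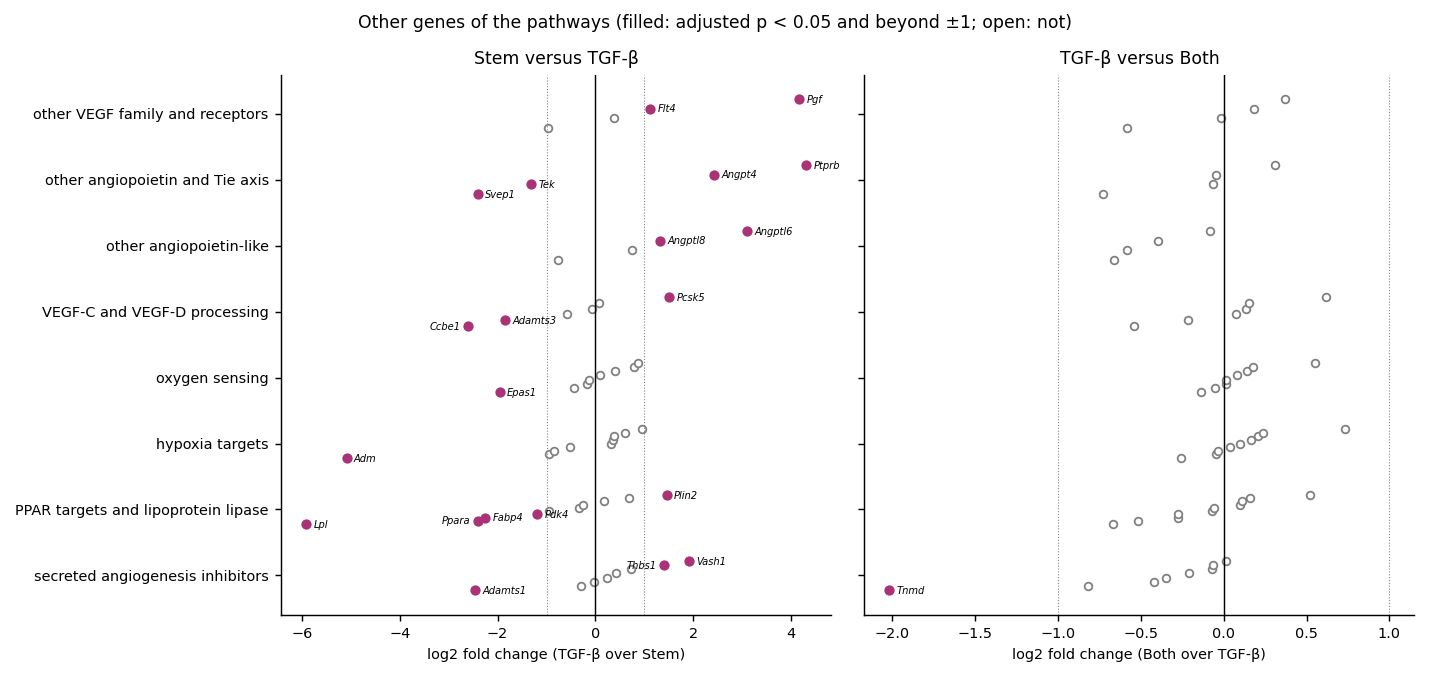
Fitted log2 fold changes (x axis) of the tested genes of 8 lists around the members (rows) for TGF-β over Stem (left) and Both over TGF-β (right), with filled points past the fold threshold and dotted lines at -1 and 1. Tnmd (-2.02) is the only filled point on the right, whereas every list has filled points on the left.

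The comparison of TGF-β with Both asks what PFI-3 added to TGF-β1 changed. The members moved little, with 1 exception: Angpt1, which had fallen from Stem to TGF-β, fell further. One member was lower past the fold threshold and 0 were higher, where 0.470% of all tested genes were lower and 0.161% higher. Without adjustment 2 members were higher and 3 lower at a p below 0.05, and DESeq2 likewise had 1 lower and 0 higher past the threshold. For counts at an unadjusted p, here and in the gene lists, no share of all tested genes is given. They are therefore not set against a background. With adjustment at 0.05, 1 member was higher and 2 were lower, against 3.54% and 5.38% of all tested genes, and 7 were not called. The TGF-β and Both libraries did not overlap in 5 members, against 32.7% of all tested genes. The median log2 fold change of the members was 0.08, against -0.0020 over all tested genes.

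Angpt1 was 2.22-fold lower in Both than in TGF-β (log2 fold change -1.15, SE 0.0940, 95% interval -1.36 to -0.95, adjusted p = 3.44e-05 by edgeR), and each Both library was below each TGF-β library. Its log2 fold change lay between -1.19 and -1.12 in 17 alternatives. The interval reaches inside the fold threshold, and edgeR's TREAT test against 2-fold did not call it (unadjusted p = 0.0201). Angpt2 was 1.29-fold higher (log2 fold change 0.37, SE 0.0486, adjusted p = 6.89e-04 by edgeR) with no overlap, so the 2 angiopoietins moved in opposite directions. Vegfa was lower by 0.21 on the log2 scale (-0.21, SE 0.0561, 95% interval -0.33 to -0.09, adjusted p = 0.0392 by edgeR). That call was lost with total counts as the scale (adjusted p = 0.101) and in 6 of the fits that left out 1 library. These were the fits without Stem replicate 3 (adjusted p = 0.0612), TGF-β replicate 2 (0.140), TGF-β replicate 3 (0.151), Both replicate 1 (0.130), Both replicate 2 (0.0883) and Both replicate 3 (0.0838).

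For the other 7 members the intervals, from the fit of all 9 libraries together, state how large a difference between TGF-β and Both remains possible. The log2 fold change was 0.02 for Vegfb (95% interval -0.10 to 0.14), -0.24 for Vegfc (-0.43 to -0.05, adjusted p = 0.119 by edgeR), 0.17 for Flt1 (-0.06 to 0.39) and 0.08 for Angptl2 (-0.03 to 0.19). It was 0.18 for Vegfd (adjusted p = 0.214, and 0.0179 with no filter on low counts) and 0.37 for Angptl4 (0.12 to 0.62, adjusted p = 0.0706), and in both of these the TGF-β and Both libraries did not overlap although the adjusted p missed 0.05. For Kdr, with 21 to 34 counts a library, it was 0.08 with an interval from -0.53 to 0.69, the widest of the 10. With a replicate block in the edgeR fit, the adjusted p was 0.0295 for Vegfc, 0.0377 for Vegfd and 0.0377 for Angptl4.

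**Figure D5:**
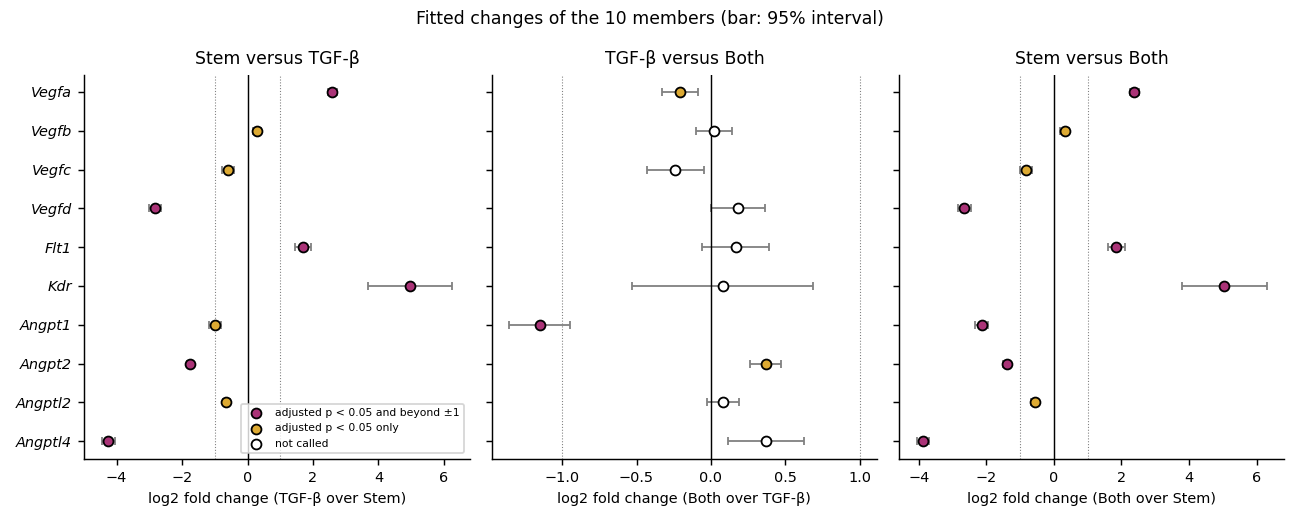
Fitted log2 fold changes (x axis, a separate scale in each panel) of the 10 members for TGF-β over Stem, Both over TGF-β and Both over Stem, with bars for 95% intervals and dotted lines at -1 and 1. All points of the outer panels are called at an adjusted p below 0.05, and in the middle panel only Angpt1 (-1.15), Angpt2 (0.37) and Vegfa (-0.21) are.

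Around the members, the change with PFI-3 differed between the lists. Of the 3 lists of other family members, none had a gene past the fold threshold, by edgeR or by DESeq2, although 3, 2 and 2 genes had an unadjusted p below 0.05. Their genes that changed at an adjusted p below 0.05, named after their values were seen, were Pgf (-0.58, adjusted p = 0.00903 by edgeR), Nrp1 (0.18, adjusted p = 0.0332), Angpt4 (-0.73, adjusted p = 4.58e-04), Svep1 (0.31, adjusted p = 0.0115) and Angptl6 (-0.58, adjusted p = 0.0223). The list medians were 0.08 for the other VEGF family genes, -0.06 for the Tie axis and -0.49 for the angiopoietin-like genes. Of the 8 oxygen-sensing genes 0 were called at an adjusted p below 0.05 by edgeR or by DESeq2, with 4 at an unadjusted p below 0.05 and a median of 0.05, and the 9 hypoxia targets had a median of 0.10, with 1 called at an adjusted p below 0.05, Adm (0.73, adjusted p = 0.00324 by edgeR). The medians were 0.10 for VEGF-C and VEGF-D processing and -0.06 for the PPAR and lipoprotein lipase list, which had 1 lower gene each at an adjusted p below 0.05. Among 8 angiogenesis inhibitors 4 fell at an adjusted p below 0.05, where 5.38% of all tested genes did. The median was -0.28. The fall was -0.82 for Col18a1 (adjusted p = 7.82e-05 by edgeR), -0.42 for Adamts1 (adjusted p = 0.0326) and -0.35 for Serpinf1 (adjusted p = 2.33e-04), and 1 gene passed the fold threshold. That gene was Tnmd, which encodes tenomodulin, with 154.3, 97.4 and 123.0 normalized counts in TGF-β and 36.0, 30.6 and 25.5 in Both (log2 fold change -2.02, SE 0.224, adjusted p = 2.31e-04 by edgeR).

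The comparison of Stem with Both shares its libraries with the other comparisons. In it, 3 members were higher past the fold threshold and 4 lower, where 9.55% and 13.2% of all tested genes were, and 4 were higher and 6 lower at an adjusted p below 0.05, where 36.6% of all tested genes were in each direction. The libraries did not overlap in any of the 10, nor in 74.7% of all tested genes. The median was -0.70, against -0.0046 over all tested genes. The log2 fold changes were 2.38 for Vegfa, 0.32 for Vegfb, -0.83 for Vegfc, -2.65 for Vegfd, 1.85 for Flt1, 5.05 for Kdr, -2.14 for Angpt1, -1.39 for Angpt2, -0.57 for Angptl2 and -3.88 for Angptl4, all at an adjusted p below 0.05 by edgeR. Angpt1 was the member that passed the fold threshold here and not between Stem and TGF-β. For Kdr the ratio of summed counts was 38.6, with a 95% exact interval of 10.4 to 323.7. Its fitted log2 fold change ranged from 3.45 to 7.81 over the alternatives. Angptl7 (-1.17) and Egln3 (1.42) passed the fold threshold here and not between Stem and TGF-β, where they had -0.77 and 0.87; whether the changes differ was not tested.

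The genes whose pattern over the 9 libraries was most like that of Vegfa, by Pearson correlation of log2(normalized count + 1), were Fads3 (r = 0.9996), Scd1 (0.9995) and Map6 (0.9993). This is a description, since the 9 libraries fall into groups far apart: 597 of the 14878 other genes had r above 0.99 with Vegfa. For Kdr, the member with the largest fitted change, the nearest were Chrna1 (0.9921), Mb21d2 (0.9913) and Atp5l (0.9905), which were the 3 genes above 0.99. Kdr had 0, 0 and 2 counts in Stem and from 21 to 34 in the other libraries. Counting error therefore enters its correlations, and its number of genes above 0.99 cannot be set against that of Vegfa.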

How the data were processed

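The table that the authors deposited holds unnormalized whole-number counts of reads for each Ensembl gene and library. The paper names Flexbar and STAR, the submitters' processing notes name HISAT2 2.2.1, SAMtools 1.13 and HTSeq 0.11.3, and both name GRCm39. How strand and multiply aligned reads were handled in counting is not given in the sources used here. The 3 replicates a group are independent cultures from pooled mice, so p-values measure the spread between cultures.

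The tests used edgeR 4.0.16 in R 4.3.3 (TMM scaling, filterByExpr, quasi-likelihood test, prior count 0.125), and the 9 libraries were fitted together by group without other covariates. The thresholds follow the paper's methods, which name DESeq2, run here as an alternative (version 1.42.0). Symbols were matched by Ensembl identifier, and genes without one stayed in the fit. Exon lengths came from GENCODE M21 (GRCm38) and promoters from RefSeq. The script was tested on simulated counts.

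The members and gene lists were chosen with earlier results of these data known. By the naming rule, all members are named, with every gene past the threshold in a pathway list of 6 or fewer and the 3 largest changes in longer ones. It did not cover cell type markers. The alternatives were DESeq2, its size factors, total counts, other filters, a prior count of 2, a fit of the 6 libraries compared, a replicate block, TREAT against 2-fold and each library left out. A result for 1 withheld item is not reported here.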

Additional observations from a re-analysis of the deposited data

How the results depend on the processing

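The members past the fold threshold numbered 6 or 7 between Stem and TGF-β and 7 between Stem and Both under every alternative run. Between TGF-β and Both the number was 1 under each alternative except edgeR's TREAT test against 2-fold, which had 0 (Angpt1 had an unadjusted p of 0.0201, and 1 member was below 0.05 unadjusted). Labels give the groups the same replicate numbers, and the main fit did not take them as pairs. Correlations of the libraries' deviations ran from -0.06 to 0.18 for same-numbered libraries and from -0.16 to 0.15 for the others. Replicate 2 had 0.15 (Stem with TGF-β), 0.18 (Stem with Both) and 0.12 (TGF-β with Both), and replicates 1 and 3 ran from -0.06 to 0.10. Whether same-numbered cultures share an effect was not tested. With a replicate block, 6 members in place of 3 had an adjusted p below 0.05 between TGF-β and Both, adding Vegfc (0.0295), Vegfd (0.0377) and Angptl4 (0.0377), and Vegfd was also called with no filter on low counts (0.0179) and in a fit of the 6 libraries compared (0.0348); the cause was not tested. Leaving out 1 library turned the sign of 3 values near 0 between TGF-β and Both, whose log2 values ranged from -0.0227 to 0.25 for Kdr, from -0.0204 to 0.0644 for Vegfb and from -0.0974 to 0.12 for the Vegfa to Vegfc ratio. The lowest came without Both replicate 2, Both replicate 1 and TGF-β replicate 1. Scaling by total counts moved the median of all genes by -0.12 between Stem and TGF-β and by -0.11 between Stem and Both, and changed the direction of no member. The depth limits Kdr most, at 0 to 2 counts in Stem.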
